A study of Arabidopsis thaliana with 9 samples.

Results

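Aquaporins are channel proteins that let water and small uncharged solutes cross membranes, and Arabidopsis thaliana has 35 genes for them. The genes were taken by locus from the full family: 5 PIP1 and 8 PIP2 genes (plasma membrane intrinsic proteins), 10 TIP genes (tonoplast intrinsic proteins, of the vacuole membrane), 9 NIP genes (nodulin 26-like intrinsic proteins) and 3 SIP genes (small basic intrinsic proteins). All 35 were found among the 37336 loci of the count table. Names are written with a hyphen, as UniProt gives them, so that PIP2-1 is the gene also known as PIP2;1.

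RNA-seq had been made from whole seedlings of the wild type Col-0, moved into liquid Murashige and Skoog medium at 3 days after germination and kept there for 7 days at 22 °C in 16 h of light and 8 h of dark. One group had then received 10 µM abscisic acid (ABA) and the other 0.1% DMSO (mock), both for 3 h. Each group had 3 libraries, described in the labels as independent biological replicates. Samples given 10 µM of a compound called iCB were not analysed here. A DMSO content is stated for the mock medium and not for the ABA medium.

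ABA is the hormone that plants make under drought. Water flow through roots and leaves depends in part on PIP proteins, of which PIP1 types need PIP2 partners to reach the plasma membrane, and TIP proteins carry water, ammonia or peroxide across the vacuole membrane. NIP proteins carry boric acid, arsenite and other uncharged solutes, and SIP proteins sit in the endoplasmic reticulum. In whole seedlings, fewer cells of a type and less RNA per cell cannot be told apart.

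Depth differed little between groups, with 22449479 to 22722904 counts in ABA libraries and 21585450 to 22528897 in mock libraries. Levels are in CPM, a count divided by its library's total and TMM factor and brought to a common size. Markers of leaf and root were present in all 6 libraries: the summed level of 5 leaf genes ran from 22490 to 26180 CPM in ABA and from 23000 to 25190 in mock, and that of 8 root genes from 157 to 163 CPM in ABA and from 132 to 194 in mock. A gene is called higher or lower at a Benjamini-Hochberg adjusted p below 0.05 in edgeR's quasi-likelihood test across all genes. None of the root genes and none of the leaf genes was called higher in ABA, while 2 root genes and 1 leaf gene were called lower. Among 4 guard cell genes 1 was called higher and 2 lower. Over all 21092 genes tested, 31.0% were called higher and 29.4% lower. Mock replicate 3 had the lowest mock level of all 8 root genes, against 31.8% of all genes tested. The 7 seed storage genes summed to at most 0.382 CPM in ABA and 0.413 CPM in mock, and the 3 pollen genes to at most 0.147 CPM in ABA and 0.738 CPM in mock. The 1 pollen gene tested, AGP6, passed the filter on low counts through its mock libraries alone, so no call is read from it.

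Aquaporin transcripts made up a larger part of the ABA libraries. They took 0.614%, 0.637% and 0.631% of all counts in ABA and 0.411%, 0.472% and 0.402% in mock, or 0.627 ± 0.012% against 0.428 ± 0.038% (SD, n = 3 each), a ratio of 1.46. After TMM scaling, which sets a common centre for the genes of all libraries, the sums were 6796 ± 199 CPM and 3957 ± 337 CPM, a ratio of 1.72. The 3 ABA libraries lay above the 3 mock libraries on both scales.

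The subfamilies went different ways. Of 27 genes with enough counts to be tested, 15 were called higher in ABA and 5 lower. The genes that rose were 4 of 5 PIP1, 4 of 8 PIP2, 4 of 6 tested TIP and all 3 SIP genes, and none of the 5 tested NIP genes. The genes that fell were 3 NIP genes, PIP2-4 and TIP4-1. For NIP3-1 the direction was partly fixed by the filter on low counts, so its call is counted here but not read. Against these counts stand 31.0% called higher and 29.4% called lower over all genes tested. The libraries of the groups did not overlap for 21 of the 27 genes, against 67.9% of all genes.

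The median log2 fold change (ABA minus mock) was 1.07 for PIP1, 0.67 for PIP2, 0.41 for tested TIP and 0.35 for SIP genes, against -0.01 over all genes tested. The 5 tested NIP genes ran from -1.63 to -0.06. Over all genes the median log2 fold change moved by -0.23 when only library totals were used and by -0.21 with upper-quartile scaling. The values given here use TMM, and a small change depends on that choice. With library totals 4475 genes were called higher and 9459 lower, and with upper-quartile scaling 4618 and 9100, against 6537 and 6205 with TMM. With either scaling 12 aquaporin genes were called higher and 7 lower. NIP3-1 passed the filter on low counts through its mock libraries, 3 of which were over the minimum against 1 in ABA, so its lower ABA value was partly fixed by the filter.

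**Figure D1:**
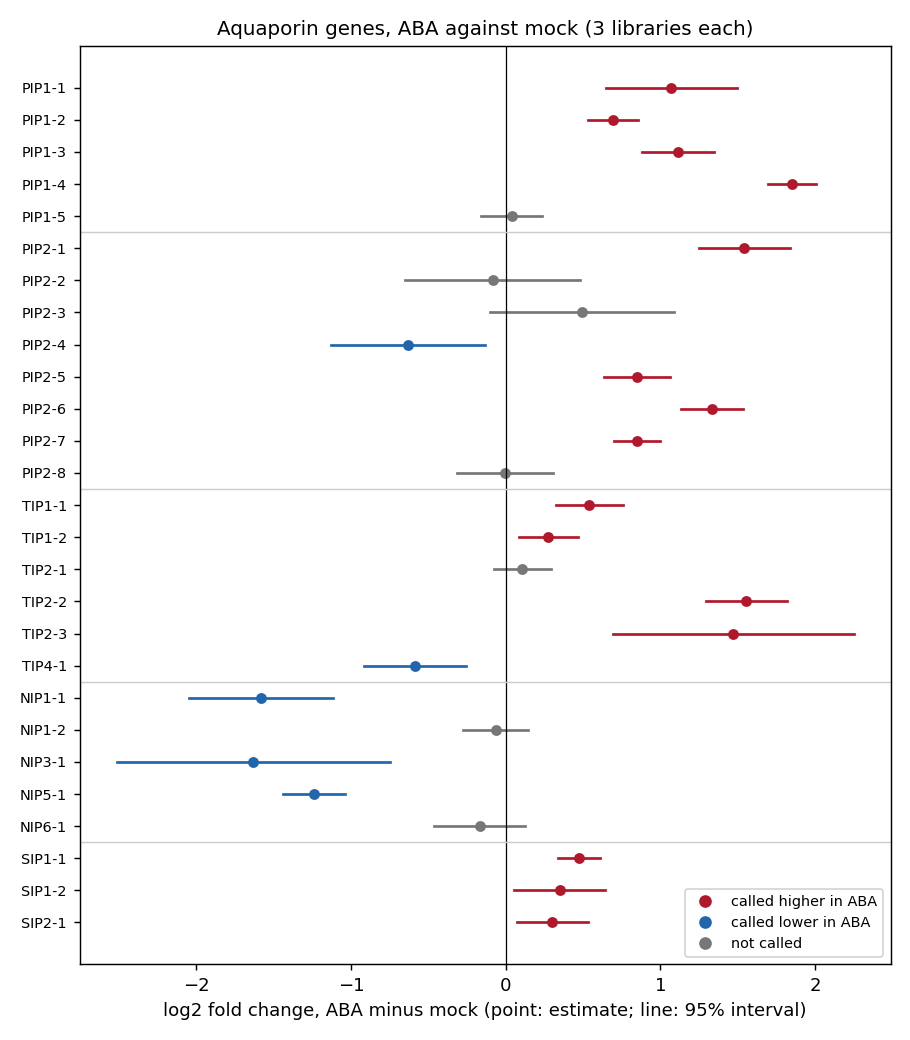
Log2 fold change of the 27 tested aquaporin genes, ABA minus mock, with 95% intervals (3 libraries per group), ordered by subfamily with PIP1 at the top and SIP at the bottom. Red points (15 genes called higher in ABA) fill most PIP, TIP and SIP places, and 3 of the 5 blue points (called lower) are NIP genes.

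The DNA just before the start of these genes was read from the TAIR10.1 genome with RefSeq's gene starts. Shown here, 5′ to 3′ on the gene's own strand, are the 250 bases before the start of the largest rise and the largest fall of each subfamily, and of TIP1-1, the only member with both motifs searched. Capitals mark ACGTG, the core of the ABA-responsive element, and CCGAC, the core of the dehydration-responsive element, on either strand. For NIP3-1 only the 82 bases clear of the neighbouring gene are shown. NIP3-1 stands here by its fitted value only. Its direction was partly fixed by the filter on low counts, so its fall is not read. Among the other NIP genes the largest fall was that of NIP1-1 (log2 fold change -1.58).
PIP1-4 (chr4:187681-187930, minus strand): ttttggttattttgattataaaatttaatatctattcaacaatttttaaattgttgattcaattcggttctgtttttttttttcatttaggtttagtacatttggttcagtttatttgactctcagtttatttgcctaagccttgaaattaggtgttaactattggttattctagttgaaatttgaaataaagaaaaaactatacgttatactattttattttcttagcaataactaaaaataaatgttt
PIP2-1 (chr3:19805731-19805980, minus strand): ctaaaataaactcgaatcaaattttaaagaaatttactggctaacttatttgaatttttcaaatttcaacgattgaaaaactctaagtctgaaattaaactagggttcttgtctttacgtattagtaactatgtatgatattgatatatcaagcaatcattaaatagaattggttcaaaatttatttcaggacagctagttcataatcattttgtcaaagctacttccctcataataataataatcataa
PIP2-4 (chr5:24377207-24377456, minus strand): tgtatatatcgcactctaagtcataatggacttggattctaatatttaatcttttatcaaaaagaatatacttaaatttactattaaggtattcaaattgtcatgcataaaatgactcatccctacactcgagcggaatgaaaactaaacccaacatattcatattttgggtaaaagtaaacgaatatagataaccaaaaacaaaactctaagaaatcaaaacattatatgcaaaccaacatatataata
TIP1-1 (chr2:15445044-15445293, plus strand): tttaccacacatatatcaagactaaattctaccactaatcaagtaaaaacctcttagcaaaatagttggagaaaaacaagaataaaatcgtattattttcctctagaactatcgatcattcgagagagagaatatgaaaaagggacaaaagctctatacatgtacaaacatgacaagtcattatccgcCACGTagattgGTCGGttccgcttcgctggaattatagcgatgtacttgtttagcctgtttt
TIP2-2 (chr4:9698690-9698939, plus strand): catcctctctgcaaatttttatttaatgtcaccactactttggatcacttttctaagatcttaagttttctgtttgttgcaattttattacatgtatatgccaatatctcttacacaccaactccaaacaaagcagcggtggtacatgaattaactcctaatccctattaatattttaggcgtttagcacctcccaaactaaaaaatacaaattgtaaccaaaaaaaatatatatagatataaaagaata
TIP4-1 (chr2:11012249-11012498, plus strand): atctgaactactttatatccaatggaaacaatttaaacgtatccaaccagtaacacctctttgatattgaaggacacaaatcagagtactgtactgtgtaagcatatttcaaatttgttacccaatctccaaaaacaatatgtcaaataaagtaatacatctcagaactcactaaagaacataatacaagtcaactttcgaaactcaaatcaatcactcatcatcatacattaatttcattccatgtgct
NIP3-1 (chr1:11450233-11450314, plus strand): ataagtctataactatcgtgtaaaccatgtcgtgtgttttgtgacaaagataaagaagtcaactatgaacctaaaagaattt
SIP1-1 (chr3:1074245-1074494, minus strand): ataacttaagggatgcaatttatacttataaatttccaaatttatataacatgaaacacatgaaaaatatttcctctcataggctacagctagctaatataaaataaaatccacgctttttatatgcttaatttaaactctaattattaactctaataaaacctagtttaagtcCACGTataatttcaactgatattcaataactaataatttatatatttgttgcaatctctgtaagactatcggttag

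ACGTG stood in 4 of 35 windows (11.4%), those of TIP1-1, TIP3-1, TIP5-1 and SIP1-1, against 22.9% of 27443 nuclear protein-coding genes. Among genes called higher in ABA across the genome the share was 31.2%, and among the 15 aquaporin genes that rose it was 2, TIP1-1 and SIP1-1. PIP1-4, PIP2-1 and TIP2-2, the largest rises of their subfamilies, held neither motif in this window. CCGAC stood in 4 of 35 windows (PIP1-3, PIP2-5, TIP1-1 and TIP1-2), or 11.4% against 12% of all genes. All 4 were among the 15 aquaporin genes called higher. Thus 4 of these 15 genes held CCGAC, against 14.2% of the genes called higher across the genome. None of the 5 aquaporin genes called lower and none of the 7 not called held it. The call of TIP1-2 depends on the scaling. A match is a string of letters and not a known site, and sequence farther away was not searched.

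PIP1 proteins are plasma membrane channels that act together with PIP2 partners. PIP1-4 (AT4G00430) had the largest rise of the family, with 714, 712 and 689 CPM in the ABA libraries and 187, 206 and 194 CPM in the mock libraries. The groups stood far apart, and its log2 fold change was 1.85 ± 0.07 (SE), or 3.6-fold (edgeR adjusted p = 8.35e-08). PIP1-3 (AT1G01620) stood at 458, 437 and 453 CPM in ABA and 199, 242 and 183 CPM in mock. It rose by 1.11 ± 0.10. PIP1-1 (AT3G61430) had 305, 352 and 334 CPM in ABA and 168, 188 and 115 CPM in mock. Its rise of 1.07 ± 0.18 carried a wide error, and mock replicate 3 lay below the other 2 mock libraries.

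PIP1-2 (AT2G45960), which also conducts carbon dioxide, had 497, 502 and 517 CPM in ABA and 318, 330 and 289 CPM in mock, a rise of 0.69 ± 0.07. The groups did not overlap in any of these 4 genes. PIP1-5 (AT4G23400) was the exception in PIP1. It had 103, 109 and 98.8 CPM in ABA and 93.5, 114 and 95.4 CPM in mock, with a log2 fold change of 0.04 and a 95% interval from -0.16 to 0.24. With library totals its value was -0.19.

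PIP2 proteins form efficient water channels by themselves. PIP2-1 (AT3G53420), which the ABA-activated kinase OST1 phosphorylates in guard cells, had 868, 1051 and 889 CPM in ABA and 313, 377 and 276 CPM in mock. The lowest ABA library was well above the highest mock library, and PIP2-1 rose by 1.54 ± 0.13 (adjusted p = 1.58e-05). PIP2-6 (AT2G39010) had 524, 551 and 530 CPM in ABA and 198, 199 and 241 CPM in mock, a rise of 1.33 ± 0.09. PIP2-7 (AT4G35100), an abundant isoform, had 374, 370 and 394 CPM in ABA and 211, 220 and 201 CPM in mock, a rise of 0.85 ± 0.07. PIP2-5 (AT3G54820) also rose by 0.85 ± 0.09 on the log2 scale, with 25.4, 24.6 and 21.6 CPM in ABA and 14.3, 12.2 and 13.1 CPM in mock.

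The other 4 PIP2 genes were not called higher. PIP2-4 (AT5G60660), known mainly from roots, had 29.0, 25.5 and 29.3 CPM in ABA and 45.6, 53.6 and 30.6 CPM in mock. It fell by 0.63 ± 0.21 (adjusted p = 0.0362), but the call was lost in 8 of 14 alternatives, among them limma-voom, the replicate block and any single library left out except mock replicate 3. Without mock replicate 3, its lowest mock library, the groups stood farther apart and the log2 fold change was -0.85. PIP2-8 (AT2G16850) had 8.74, 12.1 and 12.7 CPM in ABA and 11.4, 10.9 and 11.4 CPM in mock, a log2 fold change of -0.01 with an interval from -0.32 to 0.31.

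PIP2-2 (AT2G37170) and PIP2-3 (AT2G37180) lie head to head on chromosome 2 with 2612 bases between them, and both are root-rich water channels. Their transcripts share 11.5% of the 100-base stretches of PIP2-2 and 12.8% of those of PIP2-3, so the split of reads between them is uncertain. No other pair among the 35 genes shared a 100-base stretch. The longest coding stretch that they share letter for letter runs over 242 bases across exons 1 and 2 of both genes (chr2:15614255-15614617, minus strand, and chr2:15617953-15618315, plus strand, TAIR10.1, with an intron inside each span):
PIP2-2 and PIP2-3: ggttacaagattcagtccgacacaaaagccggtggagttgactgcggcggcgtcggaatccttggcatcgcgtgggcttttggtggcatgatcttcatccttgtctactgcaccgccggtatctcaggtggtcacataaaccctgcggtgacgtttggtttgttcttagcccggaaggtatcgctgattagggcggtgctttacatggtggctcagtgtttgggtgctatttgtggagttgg

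PIP2-2 had 172, 162 and 177 CPM in ABA and 181, 237 and 123 CPM in mock, so all ABA libraries lay inside the mock range. Its log2 fold change of -0.08 had an interval from -0.65 to 0.48. PIP2-3 had 41.2, 50.4 and 52.1 CPM in ABA and 41.1, 38.4 and 22.6 CPM in mock, with a log2 fold change of 0.49 ± 0.24 (adjusted p = 0.126). Both were lowest in mock replicate 3. Without that library PIP2-2 was called lower, at -0.31 (adjusted p = 0.0388). With DESeq2 PIP2-3 was called higher (adjusted p = 0.0268). Summed to 1 gene, the pair had a log2 fold change of 0.03 (adjusted p = 0.930).

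Of 6 tested TIP genes, 4 rose, and the largest rises were those of TIP2-2 and TIP2-3. TIP2-2 (AT4G17340) had 249, 269 and 260 CPM in ABA and 77.4, 106 and 82.1 CPM in mock, a rise of 1.55 ± 0.11 (adjusted p = 7.84e-06). TIP2-3 (AT5G47450), which conducts ammonia, had 38.0, 48.7 and 49.1 CPM in ABA and 15.1, 23.5 and 10.5 CPM in mock. It rose by 1.47 ± 0.31, with an interval from 0.69 to 2.25. TIP2-1 (AT3G16240), also an ammonia channel, did not pass the test, with 350, 357 and 338 CPM in ABA and 296, 314 and 358 CPM in mock. Its log2 fold change was 0.11 (interval from -0.08 to 0.29) and -0.12 with library totals, and 166 of its exonic bases overlap genes on the other strand.

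TIP1-2 (AT3G26520) and TIP1-1 (AT2G36830), the main water channels of the vacuole, had the smallest rises among the TIP genes called higher. TIP1-1 had 595, 643 and 661 CPM in ABA and 433, 488 and 384 CPM in mock, a rise of 0.54 ± 0.10. TIP1-2 had 1073, 1149 and 1094 CPM in ABA and 833, 1004 and 902 CPM in mock. Its rise of 0.28 ± 0.09 (adjusted p = 0.0202) was not called with library totals (0.05), with upper-quartile factors (0.07) or without mock replicate 1, mock replicate 3, ABA replicate 2 or ABA replicate 3 (0.21 to 0.29). TIP4-1 (AT2G25810), a root isoform, went the other way, with 15.7, 10.9 and 13.4 CPM in ABA and 22.6, 19.8 and 17.6 CPM in mock. It fell by 0.59 ± 0.14 (adjusted p = 0.00741).

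NIP genes were low, and those that moved fell. NIP5-1 (AT4G10380), which takes up boric acid in roots when boron is short, had 8.97, 9.05 and 9.28 CPM in ABA and 19.8, 23.5 and 21.2 CPM in mock. The ABA libraries differed by little among themselves, and NIP5-1 fell by 1.24 ± 0.09 (adjusted p = 4.35e-06). NIP1-1 (AT4G19030), which lets arsenite into roots, had 6.54, 4.94 and 5.02 CPM in ABA and 20.6, 16.1 and 12.6 CPM in mock, and fell by 1.58 ± 0.20. NIP3-1 (AT1G31885), a further arsenite channel, held only 7, 6 and 14 counts in ABA and 41, 34 and 22 counts in mock. Its fitted fall was 1.63 ± 0.39, the widest error among tested members. It passed the filter on low counts through its mock libraries, so no call is read from it. Of its 50-base stretches 9.01% also occur in AT2G21020, so some reads could belong to either.

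NIP1-2 (AT4G18910), which moves aluminium malate, and NIP6-1 (AT1G80760), which passes boric acid to young shoot tissue, did not pass the test with TMM scaling. NIP1-2 had 11.4, 11.9 and 10.8 CPM in ABA and 12.9, 11.2 and 11.5 CPM in mock (log2 fold change -0.06, interval from -0.27 to 0.15). NIP6-1 had 4.25, 4.55 and 5.02 CPM in ABA and 5.04, 5.54 and 4.96 CPM in mock (-0.17, interval from -0.46 to 0.12). Both were called lower with library totals (-0.29 and -0.40) and with upper-quartile factors (-0.27 and -0.38). The exons of NIP6-1 share 26 bases with AT1G80750 on the other strand, which held 689 to 760 counts in ABA and 1564 to 1945 in mock. A part of the NIP6-1 count could thus belong to that gene if strand was ignored in counting.

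SIP genes encode channels of the endoplasmic reticulum, and all 3 were called higher, but 2 of these calls were lost in several alternatives. SIP1-1 (AT3G04090) had 92.9, 92.8 and 98.2 CPM in ABA and 67.8, 65.5 and 71.1 CPM in mock, a rise of 0.47 ± 0.06 that kept its call in all 14 alternatives of scaling, filter, tool, block and left-out library, but is under a log2 fold change of 1. SIP2-1 (AT3G56950) had 31.7, 33.9 and 41.7 CPM in ABA and 30.5, 28.2 and 28.4 CPM in mock. Its value of 0.30 ± 0.10 lost its call with library totals (0.07), upper-quartile factors (0.09) and without mock replicate 2, mock replicate 3 or ABA replicate 3 (0.18 to 0.28). Its exons share 168 bases with genes on the other strand, among them AT3G56940 with 17955 to 19693 counts in ABA and 21459 to 23118 in mock, so part of its count cannot be told apart from that gene's if strand was ignored in counting. SIP1-2 (AT5G18290) had 5.01, 4.70 and 4.93 CPM in ABA and 3.56, 3.79 and 4.14 CPM in mock, and its call at 0.35 ± 0.13 (adjusted p = 0.0435) was lost in 11 of 13 alternatives, among them DESeq2 and each single library left out.

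**Figure D2:**
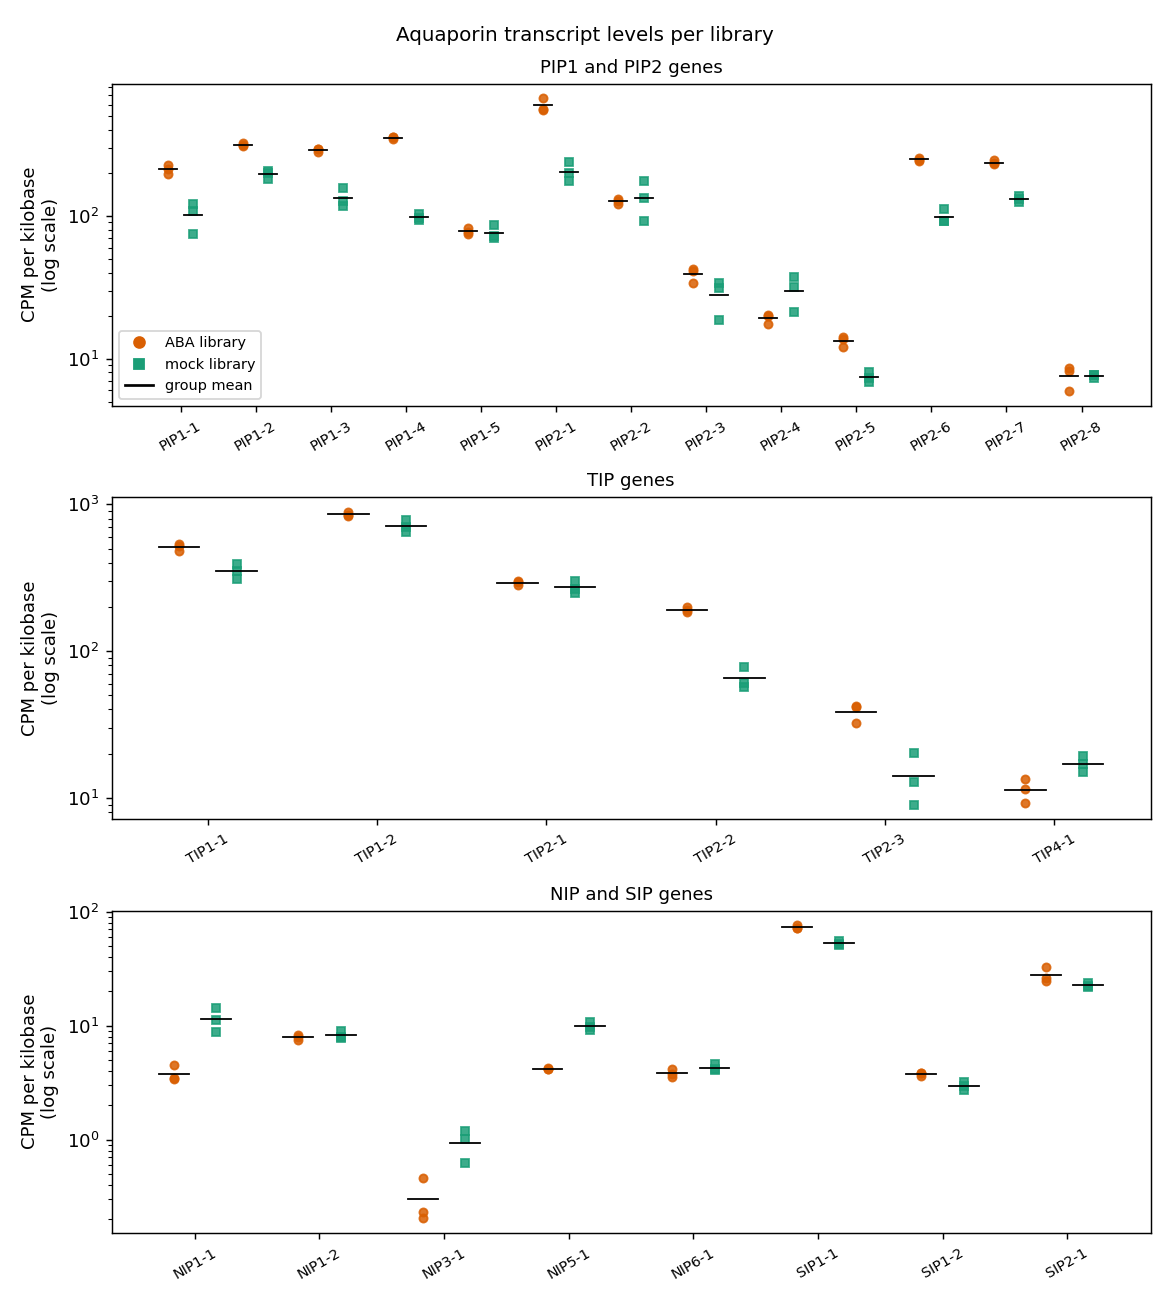
Level of each tested aquaporin gene per library, in CPM per kilobase of exon on a log scale, with ABA libraries (orange circles) left of mock libraries (green squares) and a bar at each group mean. PIP1-4, PIP2-1 and TIP2-2 show ABA libraries clear above mock, NIP1-1 and NIP5-1 clear below, and PIP2-2 ABA libraries inside a wide mock range.

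The remaining 8 genes were not tested. The seed genes TIP3-1 and TIP3-2, of protein storage vacuoles, held 2 counts each over the ABA libraries and 4 and 1 over the mock libraries. The genes known from pollen, TIP1-3, TIP5-1 and NIP4-2, held 3, 1 and 10 counts in ABA and 7, 2 and 14 in mock. NIP4-1, also of pollen, had no count in any library, which allows a level of up to 0.048 CPM in ABA and 0.0417 CPM in mock by a limit of 3 counts per group. NIP7-1, known from anthers, held 13, 7 and 17 counts in ABA and 9, 8 and 7 in mock. Of these 7 genes, NIP7-1 alone was called in an alternative that included it, higher by 1.08 (edgeR adjusted p = 0.0439) without ABA replicate 2, its lowest ABA library. It then passed the filter through its ABA libraries alone, so the direction was fixed by the filter.

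NIP2-1 (AT2G34390), a lactic acid channel induced by low oxygen, had most of its counts in a single library. It held 4, 1 and 7 counts in ABA and 10, 5 and 131 counts in mock, and mock replicate 3 stood far above the other 5 libraries. DESeq2, which keeps genes this low, called it lower at -3.39 (adjusted p = 0.0432), and edgeR without a filter did not (adjusted p = 0.21). AT2G08660, which overlaps it on the other strand, held 10 counts in that library against 12 and 13 in the other mock libraries, and the other overlapping gene, AT2G34380, 163 against 151 and 147. Of 8 low-oxygen genes listed after these values were seen, all 8 were highest among mock libraries in replicate 3, against 34.2% of all genes tested. Between the groups 2 of the 8 were called higher in ABA and 1 lower, with a median log2 fold change of -0.10. In ABA 7 of the 8 were likewise highest in replicate 3. The part of these conditions in the NIP2-1 value was not tested.

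Levels between genes were compared per kilobase of exon. TIP1-2 was the most abundant aquaporin in both groups, at 857 ± 30.4 CPM per kilobase in ABA and 708 ± 66.7 in mock, and its libraries lay above those of every other member. In ABA the next places went to PIP2-1 (595 ± 63.6), TIP1-1 (511 ± 27.7), PIP1-4 (353 ± 6.89) and PIP1-2 (316 ± 6.36), and no 2 neighbours in this order overlapped. In mock the order was TIP1-1 (352 ± 42.0), TIP2-1 (272 ± 26.8), PIP2-1 (205 ± 32.7) and PIP1-2 (196 ± 13.4), of which the last 2 overlapped. PIP1-4 stood in place 4 in ABA and in place 11 in mock, where PIP1-1 (101 ± 24.2) and PIP2-6 (99.0 ± 11.2) stood just above it, each overlapping its neighbour in this order.

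The make-up of the aquaporin pool shifted towards PIP genes. PIP genes together made up 55.8%, 55.7% and 55.2% of the family's counts per kilobase in ABA and 46.0%, 45.7% and 42.2% in mock. TIP genes made up 41.5%, 41.7% and 41.9% in ABA and 49.6%, 50.6% and 53.4% in mock. No ABA library overlapped a mock library in either share. The PIP1 share was 27.4 ± 0.56% in ABA and 21.7 ± 0.81% in mock, and the PIP2 share 28.2 ± 0.60% and 23.0 ± 1.36%. NIP genes took 0.452 ± 0.023% in ABA and 1.32 ± 0.13% in mock, and SIP genes 2.30 ± 0.15% and 2.83 ± 0.32%. Shares sum to 100%, so a rise in one lowers the others: TIP levels themselves rose in 4 of 6 tested genes. PIP2-1 alone took 13.0 ± 1.04% of the pool in ABA and 7.30 ± 0.56% in mock, and TIP1-2 took 18.8 ± 0.19% and 25.4 ± 1.38%.

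**Figure D3:**
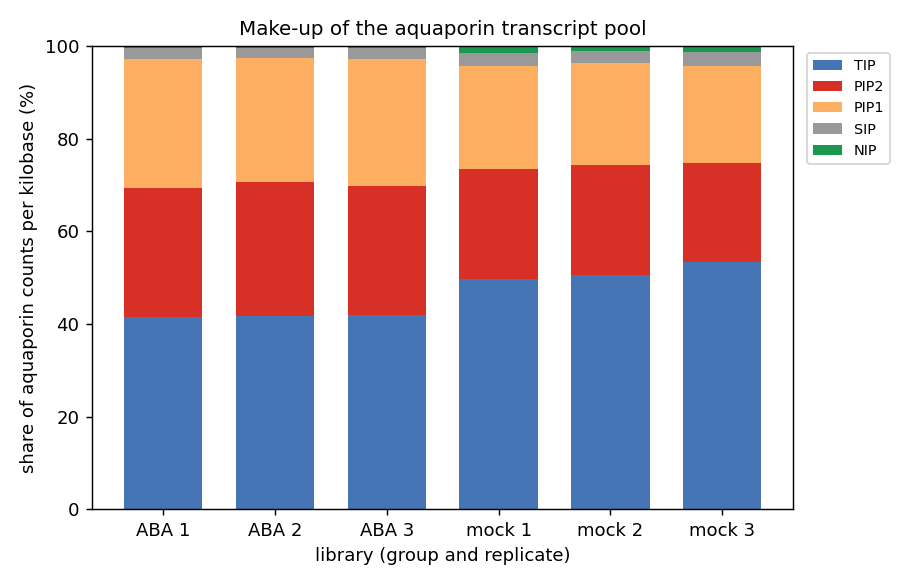
Share of each subfamily in the summed aquaporin counts per kilobase of exon, per library, with the 3 ABA libraries left of the 3 mock libraries and each bar summing to 100%. The TIP part (blue) is 41.5% to 41.9% in ABA libraries and 49.6% to 53.4% in mock libraries, and the NIP part at the top is thinner in ABA.

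Aquaporin levels spread more among mock libraries than among ABA libraries. The median SD on the log2 scale over the 27 tested genes was 0.0753 in ABA and 0.159 in mock, against 0.11 and 0.119 over all genes tested. The spread had a pattern: 10 of 27 genes (37%) were highest in mock replicate 2 and lowest in mock replicate 3, against 17.6% of all genes. PIP1-1, PIP2-1, PIP2-2, PIP2-4 and TIP2-3 were among them, with PIP2-4 and TIP2-3 in mock replicate 3 at -0.50 and -0.64 from their mock mean on the log2 scale. The summed level of the 8 root genes stood at 0.26 in mock replicate 2 and -0.29 in mock replicate 3 from its own mock mean, and between -0.02 and 0.03 in the ABA libraries. The part of root content in these values was not tested. Leaving out mock replicate 3 left PIP1-1 at a log2 fold change of 0.87, PIP2-1 at 1.42 and TIP2-3 at 1.21, all still called higher.

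**Figure D4:**
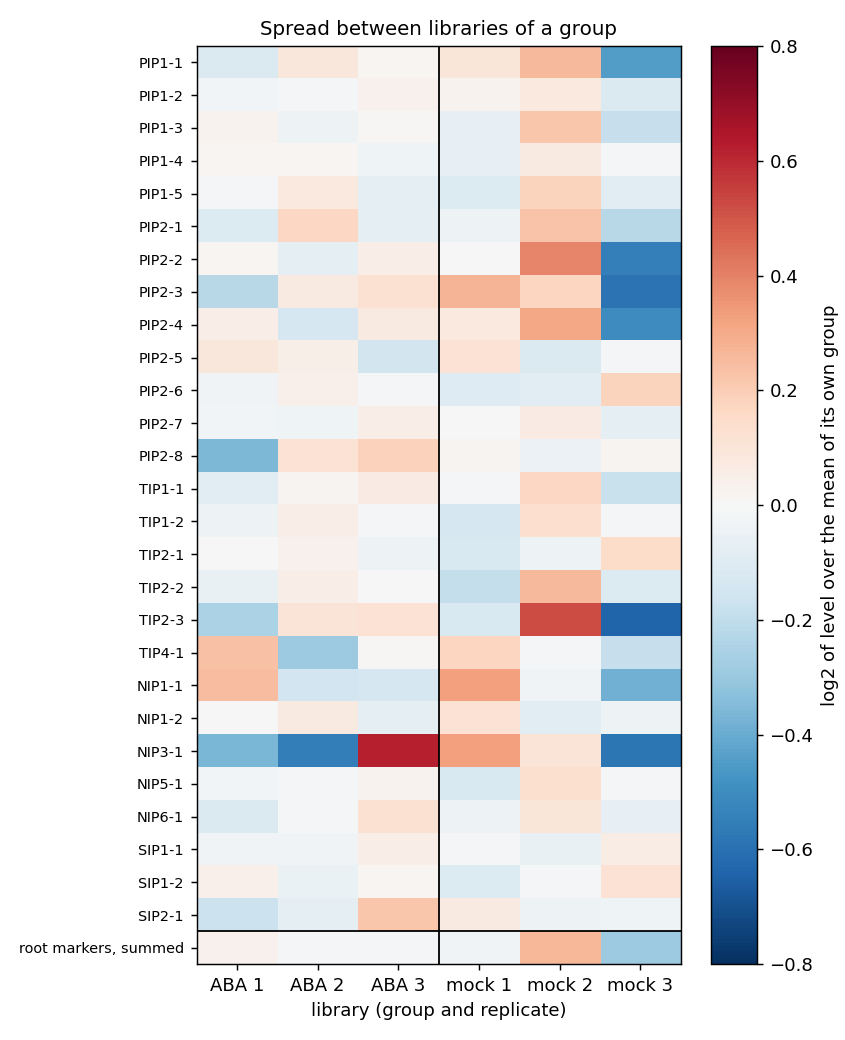
Log2 ratio of each tested aquaporin gene's level in a library to the mean of its own group, with the 3 ABA libraries left of the 3 mock libraries, and the bottom row is the sum of 8 root markers. In mock replicate 3 the root row (-0.29) and PIP1-1, PIP2-2, PIP2-3, PIP2-4 and TIP2-3 are blue (below the mean), while in ABA most rows are pale.

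Of 10 genes whose products act on aquaporins or on their regulators, 5 were called higher and 2 lower, against 31.0% and 29.4% of all genes. The 4 with the smallest adjusted p were all called higher. OST1 (SNRK2.6), the kinase that phosphorylates PIP2-1, rose by 2.17 ± 0.09, and ABI1, the phosphatase that holds OST1 inactive, rose by 3.74 ± 0.08. TSPO, which binds PIP2-7 and leads it to breakdown, had a fitted rise of 11.92. With 6 counts over the mock libraries, this size depends on few counts. TSPO passed the filter on low counts through its ABA libraries alone, so its call, counted among the 5, is not read. RMA3, of the ubiquitin ligase group that retains PIP2-1 in the endoplasmic reticulum, rose by 0.81 ± 0.09. The RMA genes did not move alike: RMA1 rose by 0.61 ± 0.11 and RMA2 fell by 0.68 ± 0.18. The other regulator called lower was SIRK1, at -0.53 ± 0.06.

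Genes for 4 boron exporters, which act beside NIP5-1 and NIP6-1 in boron transport, were measured too. BOR3, BOR6 and BOR7 were also on the list but were left out, since these names are not in RefSeq. BOR1 and BOR2, used when boron is short, fell by 0.93 ± 0.11 and 0.55 ± 0.12. BOR4, which expels boron when it is in excess, rose by 2.73 ± 0.18, and BOR5 rose by 1.31 ± 0.20. With 2 of 4 called higher and 2 lower, against 31.0% and 29.4% of all genes, nothing is read from the counts of so short a list.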

How the data were processed

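Whole-seedling RNA had been sequenced from libraries made with a strand-specific mRNA kit, per the labels' protocols. The tools named in the submitters' processing notes are STAR, cutadapt, FastQC and DESeq2, with the genome build TAIR10. For versions, the counting program, its strand setting and reads with several matches, details were not given in the sources used here. All deposited values are raw counts per locus, not normalized by the authors. Of the table's columns, 6 match the labels of ABA and mock samples. The other 3 match no label and were not used, so the planned comparisons with iCB were not made.

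The test was edgeR's (version 4.0.16, under R 4.3.3, filterByExpr, 21092 loci, TMM, robust quasi-likelihood test, ABA against mock, called at an adjusted p below 0.05). SEs are the fold change over the square root of F, and intervals are 95% from the test's degrees of freedom. Limits from counts cover counting error only. Exonic lengths, overlaps and sequences came from RefSeq's TAIR10.1, joined by locus. The nuclear chromosomes of TAIR10.1 were taken to be those of TAIR10, which the count table, having no coordinates, cannot show. The test was checked on simulated data. Alternatives were DESeq2 1.42.0, limma-voom (limma 3.58.1), other scalings and filters, the replicate number as a block, stricter thresholds, each library left out, and PIP2-2 and PIP2-3 summed. No 2 replicates agreed within sampling noise (chi-square over degrees of freedom 6.64 to 14.7).

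Members and lists were chosen with earlier results of these data known. All 35 members are accounted for, and promoters are printed for the largest rise and fall of each subfamily. The rule for genes outside the family was at most 4 a list with the smallest adjusted p. All come from fixed lists of aquaporin regulators, boron exporters, and leaf, root, guard cell, seed storage and pollen markers, less 5 entries whose name is not in RefSeq. The low-oxygen list was added after values were seen. TIP1-1's promoter, genes that overlap members, and RMA1, RMA2 and SIRK1 were likewise named after their values were seen.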

Additional observations from a re-analysis of the deposited data

How the results depend on the processing

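The counts of called genes, 15 higher and 5 lower in ABA, moved little under most alternatives: 12 to 15 were higher and 4 to 7 lower (12 to 14 and 4 to 6 with 1 library left out), including NIP2-1 with DESeq2 and NIP7-1 without ABA replicate 2 (its direction fixed by the filter), except that 7 and 3 passed when a log2 fold change of at least 1 was also required. The median log2 fold change over tested members, 0.35, was 0.14 under upper-quartile scaling and 0.12 under library totals. No called member reversed its direction under any alternative run, but that of NIP3-1 was partly fixed by the filter. The difference of pool shares kept its sign for every subfamily. The NIP difference of -0.86 percentage points became -1.025 when counts were not divided by length, and the PIP2 difference of 5.21 points became 7.19 without PIP2-2 and PIP2-3. The causes of these moves were not tested. Deviations from the group mean correlated weakly but positively between samples with the same replicate number (r = 0.0663, 0.0838 and 0.203 for replicates 1, 2 and 3, across genes). Each sample correlated best with its own number. This is a hint from the data and not the design, so the main test did not take the numbers as pairs. With the replicate block 14 members were called higher and 4 lower, SIP1-2 and PIP2-4 losing their calls. Counts of alternatives given for a gene leave out the stricter thresholds. NIP genes held few counts, so depth limits what can be said of 4 untested NIP members.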
